A study of Mus musculus with 2 samples.

Results

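EBF1 peaks that lay close together in groups of 3 or more were taken from a genome-wide map of EBF1 in mature follicular B cells of the mouse spleen. The map is a chromatin immunoprecipitation sequencing (ChIP-seq) experiment, in which DNA crosslinked to a protein is pulled down with an antibody and sequenced. Peaks on chromosomes 1 to 19 and X were used, and 54 were dropped because at least 50 input reads fell into their 1 kb bin, which left 7361. Centres of the remaining peaks were chained wherever neighbours lay at most 10 kb apart, and every peak in a chain of at least 3 became a member. By this rule 661 peaks in 184 clusters were members, out of 7424 peaks in the whole list. They made up 8.98% of the kept peaks (exact 95% interval 8.34 to 9.66%), and the other 6700 kept peaks were 1392 peaks in 696 pairs and 5308 solitary peaks.

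EBF1, early B cell factor 1, is a DNA-binding protein that commits progenitors to the B lineage and remains expressed in mature B cells, where it binds near promoters and at distal enhancers. Active lineage genes are often served by several enhancers spread over some kilobases, and a factor bound to them then leaves a group of neighbouring peaks. A peak marks a place where crosslinked fragments pile up, which may reflect direct contact with DNA or contact through a partner protein.

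The study held 1 EBF1 ChIP library and 1 Input library, both from splenic B cells of adult C57BL/6 mice, with no treatment and no altered allele named. The cells had been depleted of CD43-, AA4.1-, CD4-, CD8- and CD9-bearing cells, after which about 97% were B220 positive and about 92% of those had the CD23 and CD21 phenotype of follicular B cells. Chromatin of 210000000 cells was fixed in 1% formaldehyde, and a polyclonal rabbit antibody raised against mouse EBF1 was used for the ChIP. The number of animals pooled is not given in the sources used here, and the labelled cell type was not checked because RNA was not measured. The ChIP library held 24337709 reads and the input 23033569 on chromosomes 1 to 19, X and Y, so that a count of 0 allowed up to 0.123 RPM (reads scaled to library size) in the ChIP and 0.130 RPM in the input. With a single library on each side nothing could be checked against replicates and p-values are left out. All intervals are 95% intervals. Those of ratios cover counting error of the reads alone. Those of shares and medians treat the items counted, such as peaks, gaps or clusters, as independent draws. Members of 1 cluster may not be independent, and such intervals say nothing about other libraries. Positions are in the mm8 build.

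Members were chosen by their positions, and the positions were called on the same ChIP reads that are counted here. The values within and around the peaks are therefore descriptions of this choice as well as of the binding, and none of them is a test. Ratios are ChIP over input reads, divided by the ratio of the total reads of both libraries. Scores are the authors' own values per peak and serve only to rank peaks within the list.

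Most clusters were small. There were 118 clusters of 3 peaks, 44 of 4, 12 of 5, 6 of 6, 3 of 8 and 1 of 11 peaks. From the first to the last centre they spanned a median of 9345 bp (interval 8030 to 10270 bp), with quartiles of 6592 and 13332 bp and a range of 990 to 35500 bp. Span grew with the number of peaks, from a median of 7875 bp for 3 peaks to 13340 bp for 4 and 22940 bp for the 10 clusters of 6 or more. Clusters of 5 had a median of 11485 bp, below that of clusters of 4, but their intervals (9320 to 17880 bp and 10780 to 15060 bp) overlapped.

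Neighbouring members lay a median of 3530 bp apart (3010 to 3880 bp, 477 gaps), and the gaps were not evenly spread. The class from 500 to 1000 bp was the fullest of the 500 bp classes in clusters, and 19.3% of gaps (15.8 to 23.1%) were at most 1000 bp long. In pairs this share was larger, at 31.0% (27.6 to 34.6%), and the median gap was shorter, at 2495 bp (2130 to 2900 bp). In clusters of 3 the shorter gap had a median of 1575 bp and the longer one 5680 bp, a difference that follows in part from ordering the gaps. The closest members were 380 bp apart, and in the whole list the smallest distance was 360 bp, so closer sites, if present, were listed as 1 peak or not at all.

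**Figure D1:**
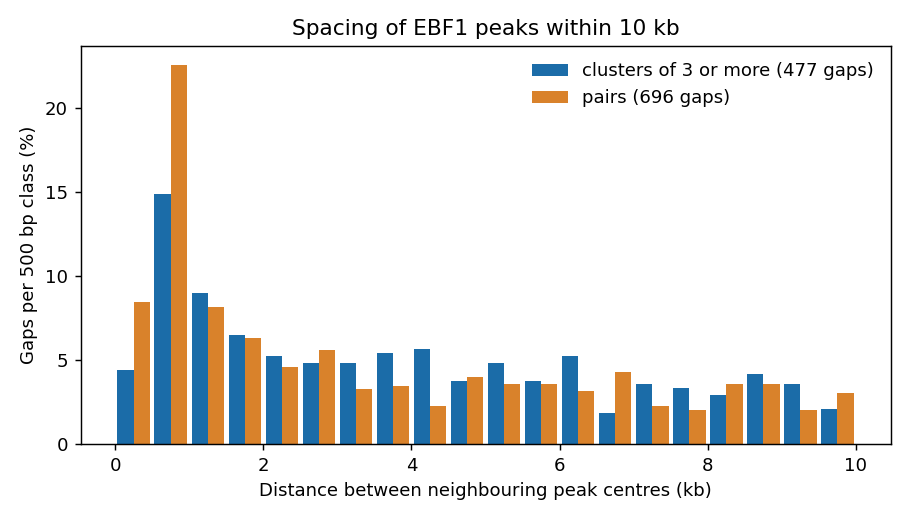
Share of gaps between neighbouring peak centres (y axis, % of gaps) in 500 bp classes of distance (x axis, kb) for clusters of 3 or more (477 gaps, blue) and pairs (696 gaps, orange). Both sets peak between 500 and 1000 bp, and pairs have the larger share of gaps up to 1000 bp (31.0% against 19.3%).

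The linking distance of 10 kb sets which peaks are members, and the gaps ran up to it without a break. The longest gap inside a cluster, 9970 bp on chromosome 19, joined peaks centred at 4145055 and 4155025 with 13 and 11 ChIP reads. The shortest gap that kept a peak out of a possible cluster, 10010 bp on chromosome 11, separated a peak at 115173755 with 16 ChIP reads from a pair whose nearer peak, at 115183765, had 25. These peaks on either side of the limit were of like size. Without the input limit 714 peaks in 190 clusters would be members, and 641 in 179 with a limit of 30 reads. The member with most input, on chromosome 10 at 80581191 to 80581340, shared its bin of 40 input reads with the next member, the dropped peak with the fewest had 54, and 0 of the 54 dropped peaks lay within 10 kb of a member.

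Peaks in clusters were somewhat stronger than other peaks. The 661 members held 17800 ChIP and 1240 input reads in their 150 bp, or a scaled ratio of 13.6 (12.8 to 14.4), against 138204 and 10425 reads and a ratio of 12.5 (12.3 to 12.8) in the 6700 other kept peaks. The ratio was thus 1.08 times (1.02 to 1.15) that of the others. This small difference depended on the rule: it was 0.982 (0.902 to 1.07) when peaks were linked at 5 kb, and 0.538 (0.516 to 0.561) when high-input peaks were kept. ChIP read counts of members had quartiles of 11, 15 and 29, with a range of 3 to 226, and those of the other peaks had quartiles of 10, 13 and 21, so the sets overlapped over most of their range.

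The difference lay mainly in the upper tail. Scores of 10 or more were found in 181 members (27.4%, 24.0 to 31.0%), against 19% of all kept peaks and 17.2% (16.2 to 18.2%) of solitary peaks. Scores of 20 or more were found in 72 members (10.9%, 8.62 to 13.5%), against 6.25% of all kept peaks. At least 100 ChIP reads were found in 32 members (4.84%, 3.33 to 6.77%), against 2.01% of all kept peaks. These read counts are not divided by input, which was 12.5 reads per kb in member peaks and 10.4 in other kept peaks. A ratio whose interval lay above 1 was found in 611 members (92.4%, 90.1 to 94.3%), close to the 90.8% of all kept peaks. Most peaks of every set met this call, so it can show little difference between sets. Seen from the scores, members were 7.55% (6.71 to 8.47%) of the kept peaks with a score under 6, 11.6% (9.62 to 13.8%) of those between 10 and 20, and 15.6% (12.3 to 19.5%) of those between 20 and 50. Among the lowest scores members were thus somewhat rarer than among all kept peaks (8.98%). Scores of 50 or more were found in 8 members (1.21%, 0.524 to 2.37%), against 0.693% of all kept peaks, a share within that interval.

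Around the peak centres the ChIP signal of members was as narrow as that of other peaks and stood on a higher floor. Within 40 bp of the centre members averaged 9.30 RPKM (RPM per kb of sequence), pairs 8.06 and solitary peaks 6.98. The profile was 120 bp wide at the level midway between its centre and its 200 to 300 bp flank in all 3 sets. At 800 to 1000 bp members still had 1.07 RPKM and solitary peaks 0.629, but neighbouring peaks fall into this distance in clusters and pairs and cannot in solitary peaks. The input had 0.580 RPKM at the centre of members and 0.557 at 800 to 1000 bp, and it dipped to 0.430 at 80 to 100 bp. In solitary peaks the corresponding input values were 0.472, 0.490 and 0.371, so the same dip was present with a lower level throughout.

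**Figure D2:**
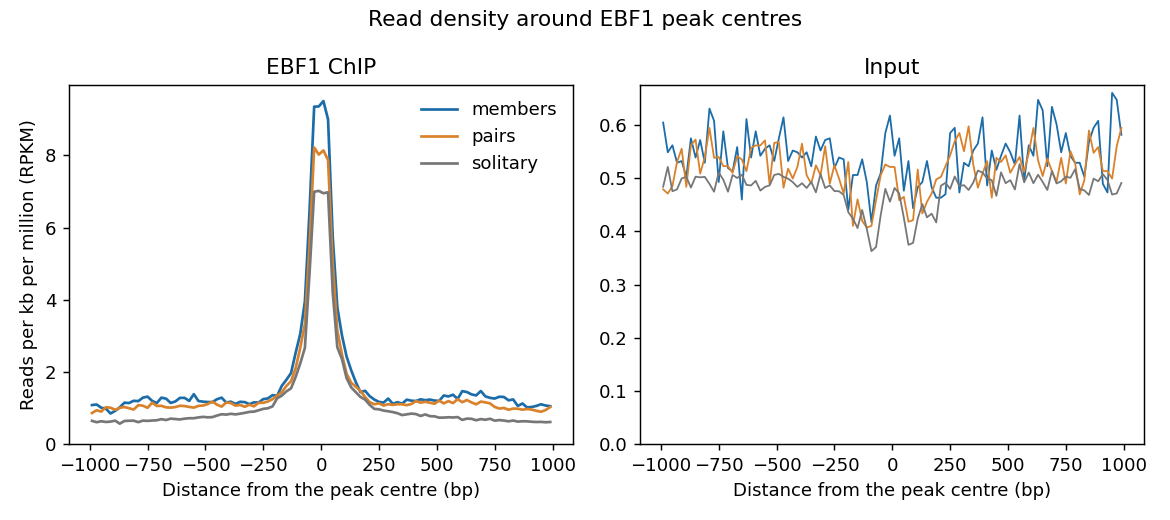
Mean read density (y axis, RPKM) against distance from the peak centre (x axis, bp, in 20 bp steps) for the 661 members, 1392 peaks in pairs and 5308 solitary peaks, in the EBF1 ChIP (left) and the input (right). ChIP density at the centre is highest in members (9.30 RPKM within 40 bp) and lowest in solitary peaks (6.98 RPKM), and the input has a shallow dip on both sides of the centre.

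Reads within a cluster were shared unevenly, but other neighbouring peaks differed nearly as much. The median difference in ChIP reads between neighbours was 1.92-fold in clusters and 1.78-fold in pairs. It was also 1.78-fold for kept neighbours 10 to 50 kb apart. In the 118 clusters of 3, the leading peak held a median of 53.0% of the ChIP reads in the 3 peaks (50.9 to 57.1%), where an even split would give 33.3%. Shares ran from 35.1 to 88.5%, with quartiles of 44.4 and 63.1%. The second peak held a median of 28.3% and the weakest 17.6%. In reads, the leading peak had a median of 32, the second 15 and the weakest 10.5. A leading share is at or above the even split by construction, and counting error raises it when peaks hold few reads. It was 63.0% in the clusters of 3 with at least 60 ChIP reads, which were picked by their reads, a choice that favours a strong leader.

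**Figure D3:**
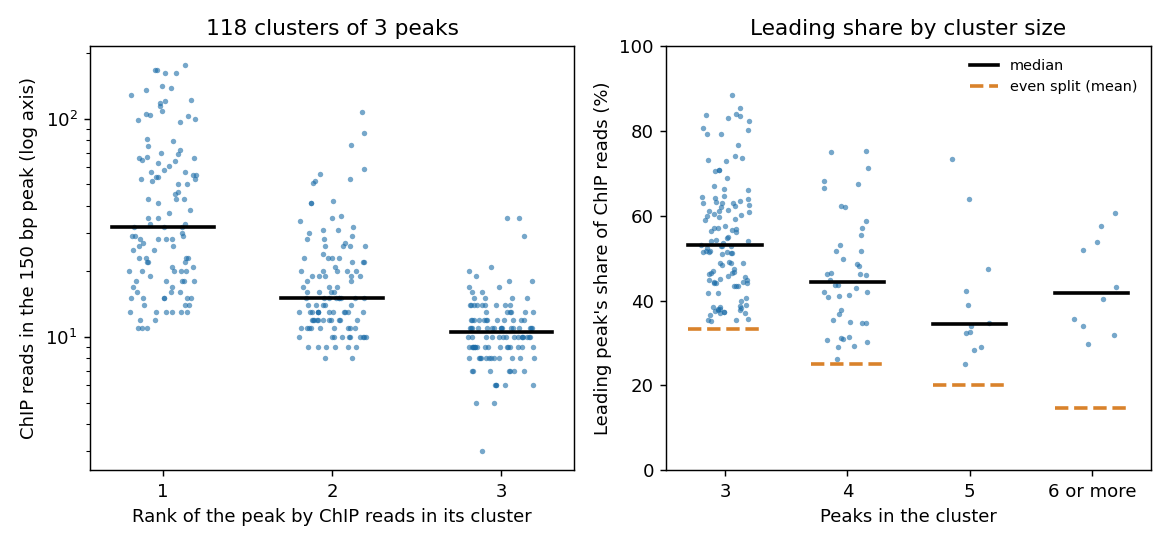
Left, ChIP reads per 150 bp peak (y axis, log scale) by rank within each of the 118 clusters of 3 (points are peaks, bars medians of 32, 15 and 10.5 reads). Right, the leading peak's share of its cluster's ChIP reads (y axis, %) by number of peaks in the cluster (points are clusters, black bars medians, dashed bars the even split). Medians lie above the even split at every size, at 53.0, 44.3, 34.4 and 41.8%.

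The leading share was also above the even split in larger clusters. It was 44.3% (41.1 to 48.6%) in clusters of 4, where an even split gives 25%, and 34.4% (29.0 to 47.5%) in clusters of 5, where it gives 20%. The 10 clusters of 6 or more had a median of 41.8% (31.8 to 57.6%), against a mean even split of 14.7%. Their leading peaks had a median of 95 reads and their weakest 8.5, a median 10.8-fold apart. Over all sizes the leading peak held at least 50% of the reads in 91 of the 184 clusters (49.5%, 42.0 to 56.9%).

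Ratio and score fell with rank, which ranking by reads favours. Leading peaks had a pooled ratio of 20.5 (18.6 to 22.5) and a median score of 13.1. Second peaks had 11.04 (9.92 to 12.3) and 6.83, and the peaks of rank 3 had 9.14 (8.04 to 10.4) and 5.78. The other kept peaks had a median score of 6.07 and a ratio of 12.5. Scores of 10 or more belonged to 116 of 184 leading peaks, 50 second peaks and 13 of rank 3, against 19% of all kept peaks. No member reached that score in 66 clusters, exactly 1 did in 70, and at least 2 did in 48. In 139 clusters (75.5%) every member had a ratio interval above 1, and in 41 all but 1 did. Taken singly, 92.4% of members and 90.8% of all kept peaks had such an interval, so these cluster counts restate that share in part.

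The leading peak had no preferred place within the cluster at this depth. In clusters of 3 it was the middle peak in 44 of 118 (37.3%, 28.6 to 46.7%), where the middle peak is 33.3% of peaks. In clusters of 4 or more it was an inner peak in 51.5% (38.9 to 64.0%), where inner peaks are 57.0%. Median ChIP reads were 16 for inner and 15 for outer members. In 12 clusters the first 2 ranks were tied in reads and were ordered by score.

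The cluster with the most peaks lay on chromosome 10 at 79544451 to 79571270 and held 11 peaks over 26670 bp. Its strongest peak, at 79551801 to 79551950, had 84 ChIP reads and 1 input read, 31.8% of the cluster's 264 ChIP reads. The next, at 79562361 to 79562510, had 45 and 3 reads, and a peak at 79553891 to 79554040 had 30 and 1. The other 8 had 7 to 24 ChIP and 0 to 6 input reads, and for 2 of them the interval of the ratio reached below 1. A run of 4 peaks stood close to each other near the middle of this cluster, from 79561861 to 79564200, with gaps of 500, 970 and 720 bp. The cluster is 1 of 7 in the region from 79000001 to 81000000, where 32 of 79 kept peaks were members.

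Another 3 clusters held 8 peaks each, and in each of them 1 peak stood above the rest. On chromosome 7 at 101220671 to 101256320, the longest cluster at 35500 bp, the peak at 101251811 to 101251960 held 157 reads in the ChIP and 2 in the input, giving a ratio of 74.3 (20.2 to 619). Its neighbour 4360 bp away had 42 and 2 reads, another member had 35 and 1, and the remaining 5 had 8 to 29 ChIP reads. On chromosome 17 at 28886321 to 28906210, the peak at 28889791 to 28889940 had 106 ChIP and 2 input reads, or 43.3% of its cluster, and the other 7 had 11 to 40 ChIP reads. The cluster on chromosome 7 at 24978791 to 25006690 was weaker, with 59 ChIP and 2 input reads in its leading peak at 24988051 to 24988200 and 7 to 20 ChIP reads in the other 7. The first of the 6 clusters of 6 by position, on chromosome 2 at 92980971 to 93002460, had the lowest leading share of these, 29.8%, with 37 ChIP reads and 1 input read in the first peak and 10 to 23 ChIP reads in the other 5.

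**Figure D4:**
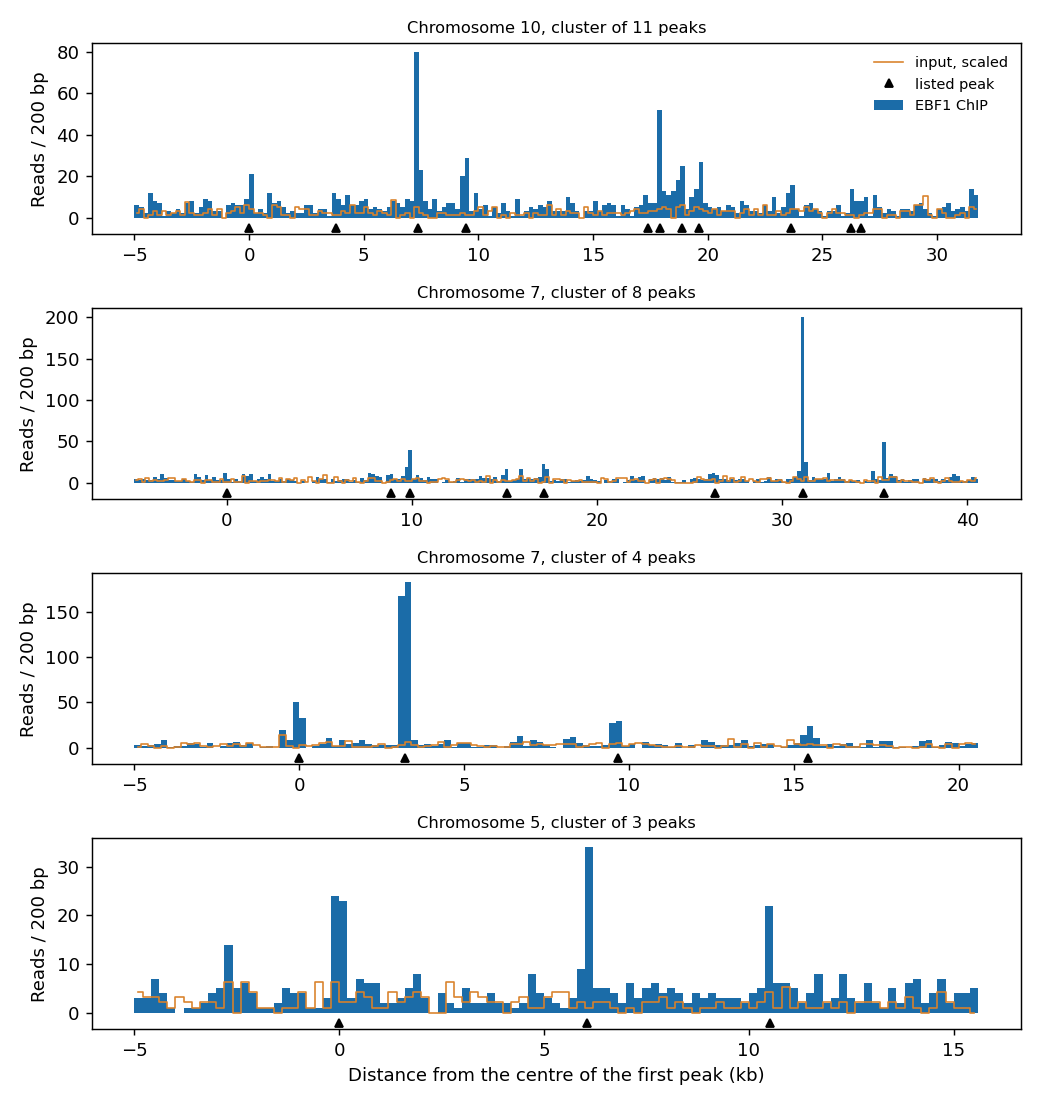
ChIP reads (blue bars) and scaled input reads (orange line) per 200 bp (y axis) against distance from the centre of the first peak (x axis, kb) in 4 clusters, with listed peaks marked by triangles: the cluster of 11 on chromosome 10, the longest cluster on chromosome 7 (8 peaks), the cluster with the highest score on chromosome 7 (4 peaks) and an evenly shared cluster of 3 on chromosome 5. A single peak rises far above the rest in both panels of chromosome 7 (157 and 226 reads in the 150 bp peak), while the peaks of the last have 21 to 29 reads.

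The strongest single member lay in a cluster of 4 on chromosome 7 at 24151191 to 24166780. This peak, at 24154411 to 24154560, had the highest score of all members, 77.3, with 226 reads in the ChIP and 3 in the input, giving a ratio of 71.3 (24.1 to 348). Its 3 companions had 57, 26 and 22 ChIP reads against 2, 4 and 2 input reads. The cluster's total of 331 ChIP reads was the largest of any cluster, and the leading peak held 68.3% of it. The leading peak's ChIP reads filled 75.3% of the 300 read positions that a 150 bp peak offers over both strands, so its count is a lower limit. At least 50% was filled in 8 members. The same limit on counts enters the ratios and leading shares given for the strongest peaks.

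Of the clusters with the next highest scores, those on chromosomes 13 and 5 combined a strong peak with weak companions. On chromosome 13 at 55481241 to 55488950 the leading peak scored 63.1 with 162 ChIP and 2 input reads, and its companions had 13 and 18 ChIP reads with 1 input read each. On chromosome 5 at 146991961 to 146998680 the leading peak scored 59.7 with 162 ChIP reads and 1 input read, and its companions had 11 and 10 ChIP reads with 2 input reads each. That cluster had the highest leading share of all clusters of 3 with at least 60 ChIP reads, 88.5%, followed by 85.4% on chromosome 2 at 158357861 to 158359310, where a peak of 129 ChIP and 3 input reads stood between peaks of 9 and 13 ChIP reads within 1300 bp. The cluster on chromosome 13 followed these at 83.9%.

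Several of the clusters named for their reads or scores held more than 1 strong peak. On chromosome 7 at 83760121 to 83768250, the peaks at 83768101 to 83768250 and at 83760681 to 83760830 had 176 and 107 ChIP reads against 3 and 1 input reads, with a weak peak of 9 ChIP reads 560 bp beside the latter. On chromosome 15 at 82046281 to 82060770, peaks of 134, 89 and 38 ChIP reads (0, 2 and 3 input reads) were joined by one of 18, and the exact lower limit of the first one's ratio was 33.9. On chromosome 2 at 127005991 to 127029660, 6 peaks held 302 ChIP reads, led by 174 at 127026531 to 127026680, with 52 and 29 in the next ones. On chromosome 11 at 87570881 to 87580890, a peak of 136 ChIP reads and 1 input read, score 55.9, lay 700 bp from one of 51 and 9160 bp from one of 35. On chromosome 2 at 167439661 to 167446670, a peak of 121 ChIP reads and 0 input reads, score 52.6 and an exact lower limit of 30.6 for its ratio, lay 1260 bp from one of 56.

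At the other end were clusters whose peaks were nearly equal. Among clusters of 3 with at least 60 ChIP reads, the lowest leading share was 37.2%, on chromosome 5 at 144437591 to 144448250, where the peaks held 28, 29 and 21 ChIP reads against 2, 1 and 3 input reads. On chromosome 8 at 74525031 to 74526680 they held 28, 20 and 29 ChIP reads within 1500 bp. On chromosome 11 at 44834911 to 44839540 they held 29, 38 and 32, but also 8, 5 and 3 input reads, and its pooled ratio of 5.86 (3.43 to 10.6) was the lowest of these 3. In all 3 the reads were shared nearly as an even split would share them.

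Of the 3 shortest clusters, 2 were weak. The shortest of all, on chromosome 9 at 78266751 to 78267890, held 13, 11 and 13 ChIP reads over a span of 990 bp, with 2 input reads in all. On chromosome 17 at 45148861 to 45150110, peaks of 8, 13 and 9 ChIP reads spanned 1100 bp. The next shortest was the cluster of 1300 bp on chromosome 2 described above, and its leading peak was strong.

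Signal between the peaks was raised, though far less than in them. Positions between the first and last centre of a cluster and at least 500 bp from any listed centre covered 1444 kb and held 27242 ChIP against 17584 input reads, which is a ratio of 1.47 (1.44 to 1.49). From 10 to 50 kb outside the same clusters the ratio was 1.32 (1.31 to 1.33), so the signal between peaks was 1.11 times (1.09 to 1.13) that outside. Between the peaks of pairs the ratio was 1.34 (1.32 to 1.36), and clusters exceeded it 1.09-fold (1.07 to 1.12). Input density itself was also higher between the peaks than outside, at 12.2 against 10.6 reads per kb, and 9.46 over covered bins of the genome. The part of this input difference in the ratios was not tested.

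Most of the excess between peaks was matched by the surroundings at the same distance from a peak. At 500 to 1000 bp from the nearest centre the ratio was 1.54 (1.49 to 1.60) between peaks and 1.55 (1.47 to 1.64) outside the outermost peak, a quotient of 0.994 (0.932 to 1.06). At 1 to 2 kb the quotient was 1.04 (0.985 to 1.09), and at 2 to 5 kb it was 1.07 (1.03 to 1.11). Only in the last of these classes did the interval lie above 1.

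Clusters stood in stretches of raised ChIP signal that reached far beyond them. Outside clusters the ratio went from 1.55 at 500 to 1000 bp to 1.33 (1.30 to 1.36) at 2 to 5 kb and 1.37 (1.34 to 1.39) at 5 to 10 kb, and it was still 1.28 (1.28 to 1.29) at 100 to 200 kb. Around solitary peaks it was 1.36 (1.34 to 1.37) at 500 to 1000 bp, 1.18 (1.18 to 1.19) at 2 to 5 kb and 1.13 (1.13 to 1.13) at 100 to 200 kb. Pairs lay between, at 1.24 (1.23 to 1.26) for 2 to 5 kb. In the flank of 10 to 50 kb clusters exceeded solitary peaks 1.14-fold (1.13 to 1.15). Input density in these flanks was 1.06 times that around solitary peaks. The flanks of different clusters and of solitary peaks overlap in part in peak-rich regions, and the same reads then enter both values.

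**Figure D5:**
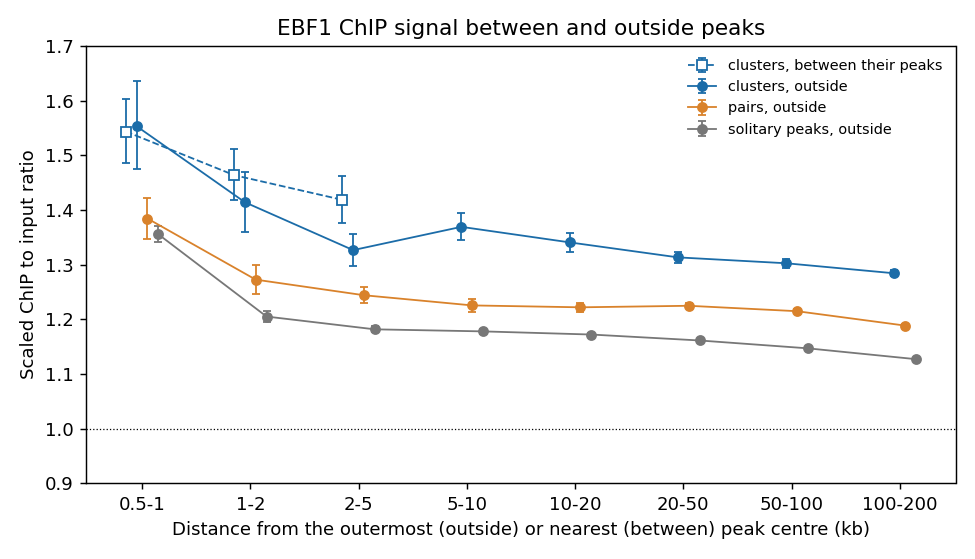
Scaled ChIP to input ratio (y axis, starting at 0.9) by distance class (x axis, kb) outside clusters, pairs and solitary peaks, and between the peaks of clusters by distance to the nearest centre, with 95% intervals for counting error. The values between and outside clusters overlap up to 2 kb, and clusters remain above pairs and solitary peaks out to 100 to 200 kb (1.28, 1.19 and 1.13).

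Taken cluster by cluster, the excess between peaks was not general. In the 174 clusters with at least 10 input reads between their peaks the ratio there had a median of 1.45, quartiles of 1.20 and 1.73 and a range of 0.676 to 4.45. It was above the ratio 10 to 50 kb outside in 115 of them (66.1%, 58.5 to 73.1%), against 59.8% of all chains of 2 or more peaks. Its interval lay above the outside value in 32 clusters (18.4%, 12.9 to 24.96%), against 14.8% of all such chains. Both shares had intervals that included the value for all chains.

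Close peaks did not have a clean valley between them, but midpoints of short gaps lie within the flanks of both peaks. Solitary peaks also held 0.974 RPKM at 200 to 300 bp, against 6.98 within 40 bp of the centre. The part of such flanks in the midpoint values was not tested. For gaps of up to 600 bp, the 150 bp at the midpoint held 6.37 ChIP and 1.78 input reads on average, a ratio of 3.38 (2.60 to 4.45) and 30.2% of the mean ChIP reads of the flanking peaks. For gaps of 600 to 1000 bp the midpoint ratio was 2.995 (2.38 to 3.80), and for 1 to 2 kb it was 1.85 (1.51 to 2.28). It levelled off at 1.36 (1.16 to 1.59) for 2 to 5 kb and 1.39 (1.19 to 1.62) for 5 to 10 kb, near the ratio of the surrounding stretch. The flanking peaks of the shortest gaps had the lowest ratio, 10.1 (8.63 to 12.0), against 13.8 to 14.1 in the other classes.

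Some short stretches between peaks held many ChIP reads. When the positions between members were divided into 9447 tiles of 150 bp, 107 tiles (1.13%, 0.929 to 1.37%) held at least 8 ChIP reads and at least 5 times the scaled input, counting an input of 0 as 1, against 0.492% of all tiles between and around clusters and pairs. With ChIP and input exchanged, 2 tiles met the limits. The exchange cannot show focal signal, because the input had fewer reads there, 12.2 against 18.9 per kb in the ChIP. Whether evenly spread reads would give as many tiles was not tested. From 10 to 50 kb outside clusters the share was 0.626% (0.576 to 0.679%), and between pairs it was 0.733% (0.587 to 0.903%). The tiles were spread over 70 of the 176 clusters that had room for one, and no cluster held more than 5. A fixed minimum of reads is passed more often where the overall ChIP density is higher, so this difference was not separated from that of the ratio.

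Among the clusters with at least 10 input reads between their peaks, the 3 with the highest ratio there were short. On chromosome 17 at 33728741 to 33733070, a cluster of 4 with 12 to 30 ChIP reads per peak had 47 ChIP and 10 input reads between its peaks, which gives a ratio of 4.45 (2.22 to 9.87), against 1.28 outside. On chromosome 1 at 134910791 to 134915420, peaks of 66, 11 and 31 ChIP reads had 118 ChIP and 27 input reads between them, which gives a ratio of 4.14 (2.70 to 6.54), against 1.27 outside. The fullest 150 bp there, at 134911536 to 134911685, held 16 ChIP and 2 input reads, more ChIP reads than the listed member of 11. On chromosome 5 at 137858891 to 137862510, peaks of 9, 15 and 5 ChIP reads had 44 and 14 reads between them, a ratio of 2.97 (1.60 to 5.88), and the fullest 150 bp held 12 ChIP and 0 input reads. These 3 were picked for their ratio, which raises it.

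Clusters were gathered on some chromosomes and in peak-rich stretches. Members were 16.4% (13.3 to 19.8%) of kept peaks on chromosome 7, 14.1% (10.8 to 17.8%) on chromosome 17 and 13.3% (10.3 to 16.9%) on chromosome 8, but 4.24% (2.53 to 6.61%) on chromosome 1 and 1.56% (0.427 to 3.95%) on chromosome 12. Chromosome 11 held the most clusters, 24, followed by chromosome 7 with 22, while chromosomes 12 and X held 1 each. In the 150 windows of 1 Mb with at least 11 kept peaks, 20.3% (18.7 to 22.0%) of the peaks were members, and 91 of these windows held a member. In windows of 3 to 5 peaks the share was 2.69% (1.99 to 3.55%). Dense windows give shorter distances by themselves, so these shares restate density in part.

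Some clusters lay near others, but most did not. Clusters began in 142 windows of 1 Mb, of which 117 held 1 and 25 held at least 2. The window on chromosome 7 from 44000001 to 45000000 saw 5 clusters begin and held 17 members among 32 kept peaks, and 4 clusters each began in windows on chromosome 10 from 80000001, chromosome 5 from 120000001 and chromosome 8 from 87000001. Of 164 distances from one cluster to the next on the same chromosome, 16 were at most 100 kb, and the shortest was 10910 bp, just over the linking distance. The median distance was 2080830 bp. Whether the density of peaks would by itself give as many near clusters was not tested.

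Input density over clusters was above the genome's mean but rarely far above it. Between the peaks it had a median of 11.8 reads per kb over the 172 clusters with at least 1 kb to measure, with a range of 7.25 to 30.2. It was more than 2 times the genome's mean of 9.46 in 4 of them.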

How the data were processed

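Per the labels and the submitters' processing notes, reads were aligned to mm8 and HOMER was used. The peak list itself carries the name CCAT. For the aligner, read filter and peak settings, nothing is given in these sources. The authors deposited 35 bp aligned reads as positions without a value, and 150 bp peaks with a score per peak whose scale is not defined. Repeated 5′ positions numbered 0 in both libraries. The members, lists and settings were chosen with earlier results of these data known.

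Reads were counted in peaks after moving 5′ ends by 50 bp, close to the midpoint of the strand distance of 115 bp around members. Ratios were scaled by 1.06, with exact conditional binomial (Clopper-Pearson) 95% intervals; quotients of ratios have log-scale intervals, shares exact Clopper-Pearson intervals, and medians order-statistic intervals. Reads from PCR without molecular identifiers are not independent molecules, so intervals of ratios cover counting error only. Clusters named are the 5 with most peaks (ties by position), most ChIP reads and highest score, the 3 highest and 3 lowest leading shares (clusters of 3, at least 60 reads), the 3 longest and shortest, and the 3 highest ratios between peaks (at least 10 input reads there). Tables of genes and promoters at hand describe another build, so no gene names or sequences are given. The planned gene lists were not analysed here. Functions were tested on simulated data with planted chains and ratios. Intervals came from scipy 1.17.1, tables from pandas 2.3.3 and numpy 2.4.6 under Python 3.11.15, and plots from matplotlib 3.10.9.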

Additional observations from a re-analysis of the deposited data

How the results depend on the processing

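Of 71 values under other settings, 39 stayed within the interval (counts within 1.5 times), 30 moved beyond it and 2 fell on the other side of 1. The setting that left out high-input bins between and outside peaks was added after seeing the data and moved nothing. The number of members was 295 with linking at 5 kb, 1218 at 20 kb and 198 among the upper 50% of scores, in 89, 321 and 59 clusters. Median spacing was 1735 bp at 5 kb and 5680 bp at 20 kb, and median span 4620 and 18020 bp. The ratio in member peaks was 12.4 at 5 kb, 14.5 with a limit of 30 input reads, 6.62 without a limit, 17.8 in the upper 50% of scores, 10.8 with 5′ ends left in place, 12.7 with a shift of 100 bp and 8.07 in 400 bp. Relative to other peaks the ratio fell below 1 under 2 settings, to 0.982 (0.902 to 1.07) at 5 kb and 0.538 (0.516 to 0.561) without a limit. The interval at 5 kb included 1, as did that of 1.07 (0.969 to 1.19) in the upper 50% of scores. The leading share in clusters of 3 was 57.3% in the upper 50% of scores, 48.8% in 400 bp and 63.0% with at least 60 reads. The ratio between peaks was 1.56 at 5 kb, 1.39 at 20 kb, 1.34 without a limit, 1.42 at least 2 kb from centres and 1.39 in clusters of exactly 3. Relative to the outside it was 1.18, 1.07, 1.03, 1.08 and 1.07 under the same 5 settings. Linking distance, upper scores and the input limit change the members by construction, and without the limit the peaks added are those with high input. The cause of the other shifts was not tested. Depth limits weak members, whose ratios have wide intervals. No paired analysis was possible because there was a single library on either side.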
